A study of Mus musculus with 4 samples.

Results

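The loci 17-qA3.3-27363 and 17-qA3.3-26735 form a divergent pair of piRNA loci on mouse chromosome 17, read away from each other from a short stretch between them. Here 17-qA3.3-27363 is called the left arm and 17-qA3.3-26735 the right arm. Reads of 25 to 31 nt were taken where the deposited table put them in the class of piRNA clusters under either name, with each distinct sequence counted once per library. The pair makes up 2 of the 214 piRNA loci in the table, of which 98 others are named by a chromosome band and 114 after a gene. The libraries hold small RNA of whole testes, taken as total RNA from mice at 16 days of age, and number 2 for wild type and 2 for Hsf5 knockdown. Where 4 values follow each other, they belong to wild type replicates 1 and 2 and then knockdown replicates 1 and 2. The labels name biological replicates without saying more of their source, so a p-value here measures the spread between these samples only. Neither the strain nor how Hsf5 was lowered is given in the sources used here, and in the deposited table the names of the knockdown libraries read as knockout. Small RNA libraries do not measure the Hsf5 mRNA, so the knockdown itself could not be checked. The stated aim was to follow piRNA expression during spermatogenesis.

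PIWI-interacting RNAs (piRNAs) are small RNAs bound by PIWI proteins of the germ line. Those of the pachytene stage of meiosis are cut from long single-stranded transcripts of loci with few protein-coding genes, and many of these loci lie as pairs that share a bidirectional promoter bound by the transcription factor A-MYB. Their first base is mostly U, and in the mouse testis the shorter ones are bound mainly by MILI and the longer ones by MIWI. Hsf5 encodes heat shock factor 5, a testis protein needed for spermatocytes to pass through the pachytene stage. In bulk tissue, fewer cells of a type and less RNA per cell cannot be told apart.

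The libraries held 9260452 to 11117460 counted reads, of which 4352106 to 7025053 were of 25 to 31 nt. Knockdown replicate 1 stood apart from the other 3 libraries. Of the 98 other loci named by band, 49 lay in that library below 50% of the lowest other library in reads per 1000000 counted reads (RPM), and 26 of them below 5%. In the same loci 15.3% of its reads were of 29 to 31 nt, against 37.1% and 34.6% in wild type replicates 1 and 2 and 39.9% in knockdown replicate 2. Knockdown replicate 2 was lowest in the Sertoli cell miRNA miR-202 (313 RPM against 567 to 825) and the endothelial miR-126a (269 against 718 to 847). The spermatocyte miRNAs miR-34b, miR-34c, miR-449a and miR-449c, of which 3 of 4 were found in every library, summed to 1142, 1599, 1737 and 1315 RPM. Most of that sum was miR-34c, while miR-34b (251, 356, 417 and 93.8 RPM) and miR-449a (26.98, 40.2, 54.3 and 14.3 RPM) were lowest in knockdown replicate 2. The red blood cell miRNAs summed to 5.41 to 6.34 RPM, the smooth muscle ones to 6478 to 8056 RPM and the epithelial ones, 2 of 3 found in every library, to 397 to 798 RPM. Of the smooth muscle ones, miR-143 had 5308, 5254, 6555 and 7008 RPM and miR-145a 1995, 1224, 1501 and 751 RPM. The epithelial sum was lowest in knockdown replicate 2. There miR-200b had 307, 336, 529 and 184 RPM and miR-200a 197, 186, 268 and 213 RPM over the libraries. The part of these differences in the results below was not tested.

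The left arm spans chr17:27507250-27544002 of GRCm39 on the minus strand, 36753 bases. The right arm spans chr17:27544171-27586457 on the plus strand, 42287 bases. The 168 bases between them are shown because both arms start at their edges. The letters that match AACNG, the core of the site that MYB proteins bind, are in capitals, searched on both strands, and the stretch is written on the plus strand.
between the arms, chr17:27544003-27544170: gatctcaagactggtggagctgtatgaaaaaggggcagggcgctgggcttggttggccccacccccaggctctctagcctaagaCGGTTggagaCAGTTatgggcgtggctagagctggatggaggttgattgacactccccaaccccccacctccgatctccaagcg
Both matches lie on the minus strand, 84 and 74 bases before the start of the right arm, and do not overlap. Among 32817 RefSeq promoters (GRCm38.p6) searched over the same number of bases before the start, 59.4% held at least 1 match and 25.3% at least 2. A match of these letters is a description of the sequence and not a binding site.

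A species is 1 distinct read sequence. The 6 species with the highest mean RPM in each arm are shown because they are the main products of the pair, with the first base in capitals and T standing for the U of the RNA. Each matched GRCm39 exactly at 1 place, on the strand of its arm. The genes are long non-coding RNA genes of GENCODE M39.
left 1, chr17:27537577-27537602, Gm49793 intron: Tgatagctgagctctgagtaggtagt
left 2, chr17:27539285-27539310, no gene on this strand: Tgagcatggattgttagtagctggtc
left 3, chr17:27538053-27538080, no gene on this strand: Tgctgactgcacacacccttgactgagc
left 4, chr17:27543828-27543854, no gene on this strand: Tctgaactttgaatgcccttaatgctc
left 5, chr17:27514973-27515001, no gene on this strand: Tgggattataggcatatacaactcgtggc
left 6, chr17:27535977-27536002, Gm49793 intron: Tgattacgaaggcttttctctggaag
right 1, chr17:27551150-27551174, Gm10505 intron: Tgagatccgcgctgctcttaactcc
right 2, chr17:27561415-27561440, Gm10505 exon: Tagaatttccggtctggtcacactca
right 3, chr17:27577869-27577894, Gm49794 exon: Tggaagcaaaggaagacactctgagt
right 4, chr17:27555853-27555878, Gm10505 intron: Tgagaatcaaagatgggaccttgctc
right 5, chr17:27577194-27577219, Gm49794 exon: Tagcggacacctgtgcttcattctgt
right 6, chr17:27577869-27577895, Gm49794 exon: Tggaagcaaaggaagacactctgagtc
Right 3 and right 6 share their 5′ end and differ by 1 base at the 3′ end. All 20 of the 10 most abundant species in each arm began with U.

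The pair was the most abundant of the 214 piRNA loci in these testes, the right arm first and the left arm second by RPM in all 4 libraries. The right arm gave 58105 and 56769 RPM in wild type replicates 1 and 2, and 81781 and 58498 RPM in knockdown replicates 1 and 2. The left arm gave 29971, 32242, 44746 and 32530 RPM. In each arm the knockdown libraries were the higher ones without overlap, but knockdown replicate 2 exceeded the nearest wild type library by little and knockdown replicate 1 lay far above the others. The group means were 31106 ± 1606 RPM (SD, n = 2) and 38638 ± 8638 RPM (SD, n = 2) in the left arm, and 57437 ± 945 RPM (SD, n = 2) and 70139 ± 16464 RPM (SD, n = 2) in the right arm, wild type first. With n = 2 per group the exact permutation test, two-sided over 6 assignments, gave p = 0.333 in each arm, the smallest it can give. Of all 214 loci, 5 (2.34%) had both knockdown libraries above both wild type libraries, and the 2 arms are among those 5. None of the other 98 loci named by band was highest in knockdown replicate 1.

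The share that the pair took of all piRNA locus reads did not separate the groups. Together the arms made up 38.5%, 27.9%, 53.8% and 25.6% of these reads. The highest and the lowest share were both of knockdown libraries. Per 1000 mature miRNA reads, the scale of the authors' own factor, the left arm had 166, 214, 220 and 191 reads. On the same scale the right arm had 322, 376, 403 and 344 reads. On this scale the groups overlapped in both arms (exact permutation p = 0.667 in each, two-sided).

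**Figure D1:**
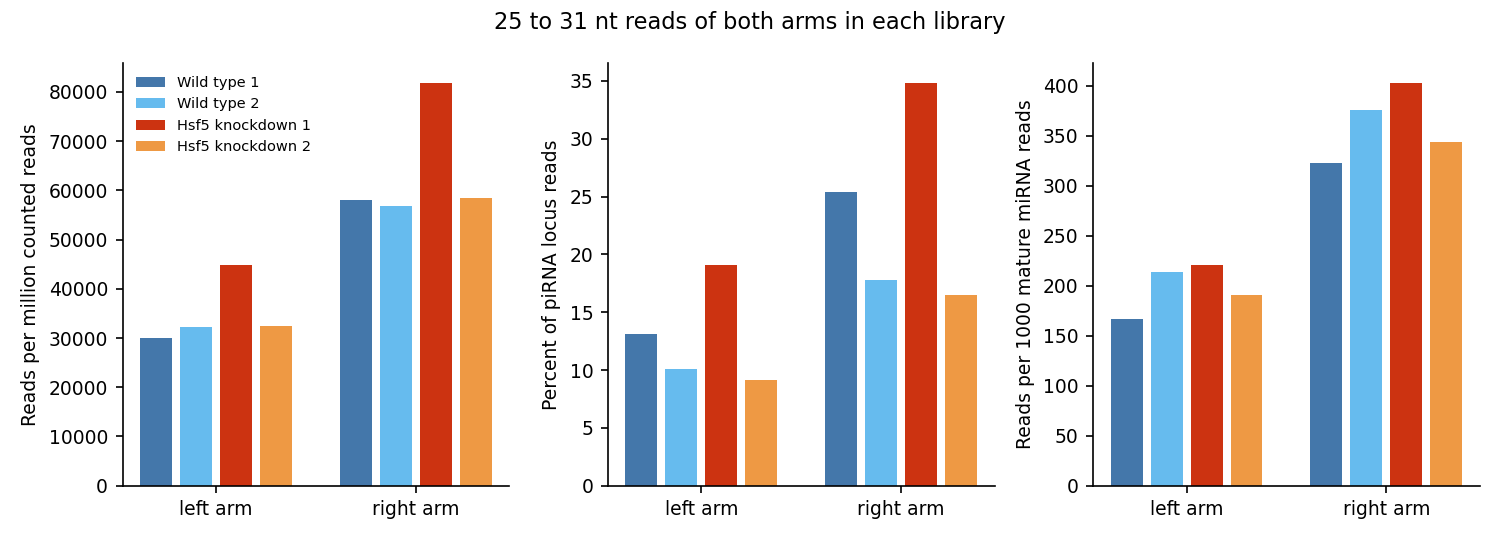
Reads of 25 to 31 nt of each arm in each library (bars, 1 per library), per 1000000 counted reads, as a percent of the reads of all 214 piRNA loci and per 1000 mature miRNA reads. Knockdown replicate 1 is highest on each scale in each arm, and knockdown replicate 2 is the lowest library by share of piRNA locus reads.

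In edgeR's quasi-likelihood fit over all 214 loci, neither arm passed the test. The log2 difference, knockdown minus wild type, was 0.84 (SE 0.81, Benjamini-Hochberg adjusted p = 0.992) in the left arm and 0.80 (SE 0.83, adjusted p = 0.992) in the right arm, against a median of 0.11 over all loci. Of the 214 loci 0 (0%) passed an adjusted p of 0.05, 0 had an unadjusted p under 0.05, and DESeq2 called 0 as well. With errors of this size, the lack of a call does not show that the arms did not differ. The size depended on how the libraries were scaled: it was 0.31 and 0.29 with all counted reads as library sizes, and 0.12 and 0.096 with mature miRNA reads, where the median over all loci was -0.05 and -0.17. It depended even more on single libraries. Without knockdown replicate 1 it was -0.61 and -0.66, left arm first, with a median of -0.25 over all loci. Without knockdown replicate 2 it was 1.49 and 1.47, with a median of 0.29 over all loci. In these fits the lone knockdown library is assumed to vary like the wild type.

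The balance between the arms was held closely in all 4 libraries. The right arm had 1.94, 1.76, 1.83 and 1.80 times the reads of the left arm. Per kb of locus the ratio was 1.68, 1.53, 1.59 and 1.56, so the right arm was also the denser source. The log2 ratio was 0.89 ± 0.10 over the wild type libraries and 0.86 ± 0.02 over the knockdown libraries (SD, n = 2 each), and the knockdown ratios lay between those of the wild type (exact permutation p = 1, two-sided). The right arm was higher in 4 of 4 libraries, for which an exact two-sided sign-flip test over the libraries gives p = 0.125, the smallest it can give (adjusted p = 0.167 over 4 comparisons of the arms). Counting loci on opposite strands that start at most 2000 bases apart or overlap by at most 500 bases, among 8 divergent pairs of the table with at least 30 reads in each arm and library, the SD of the log2 ratio over the 4 libraries was smallest here, 0.06, with a median of 0.24 and a largest value of 1.303. This pair is also the most deeply read of them, so its counting error is the smallest. The pair at 4-qB3 came next at 0.09, and the pair at 6-qF3 had 0.30.

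The loci whose levels across the 4 libraries ran most like each arm were, for both, the other arm, at a Euclidean distance of 0.10 between centred log2(RPM + 1) values. The next for the left arm were 4-qB3-639 at 0.50 and 17-qC-935 at 0.52, and for the right arm 4-qB3-639 at 0.56 and pi-Zfp382 at 0.57. The median distance over the 110 other loci with a mean of at least 100 RPM was 1.23 for the left arm and 1.24 for the right arm. 4-qB3-639 had 622, 813, 759 and 857 RPM, so it did not share the high value of knockdown replicate 1. These distances rest on 4 libraries and are a description.

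The reads of both arms peaked at 26 or 27 nt. In the left arm the commonest length was 27 nt in wild type replicate 1 and knockdown replicate 2 and 26 nt in the other libraries. In the right arm it was 27 nt in wild type replicate 1 and 26 nt in the other 3. Long reads of 29 to 31 nt, the size bound mainly by MIWI, made up 23.2%, 20.3%, 11.7% and 24.98% of the left arm. The right arm held 20.004%, 16.5%, 10.2% and 20.5%. The knockdown libraries thus lay on either side of the wild type, knockdown replicate 1 lowest and knockdown replicate 2 highest in each arm. The 95% Wilson intervals of these shares reached at most 0.144 percentage points to either side, counting error only. The difference between the groups was -3.40 points in the left arm and -2.86 points in the right arm, knockdown minus wild type (exact permutation p = 1 in each, two-sided, n = 2 per group). Without knockdown replicate 1 it was 3.24 and 2.29 points.

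The left arm held more long reads than the right arm in 4 of 4 libraries. The difference, right minus left, was -3.19, -3.81, -1.48 and -4.45 percentage points (exact sign-flip p = 0.125, two-sided, the smallest possible, adjusted p = 0.167). Both arms held fewer long reads than the other loci named by band, which had 37.1%, 34.6%, 15.3% and 39.9%. The difference from these was -13.9, -14.3, -3.55 and -14.95 points for the left arm and -17.1, -18.2, -5.03 and -19.4 points for the right arm (exact sign-flip p = 0.125 in each). The gap was narrowest in knockdown replicate 1, the library in which the long share of the other loci was also lowest.

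**Figure D2:**
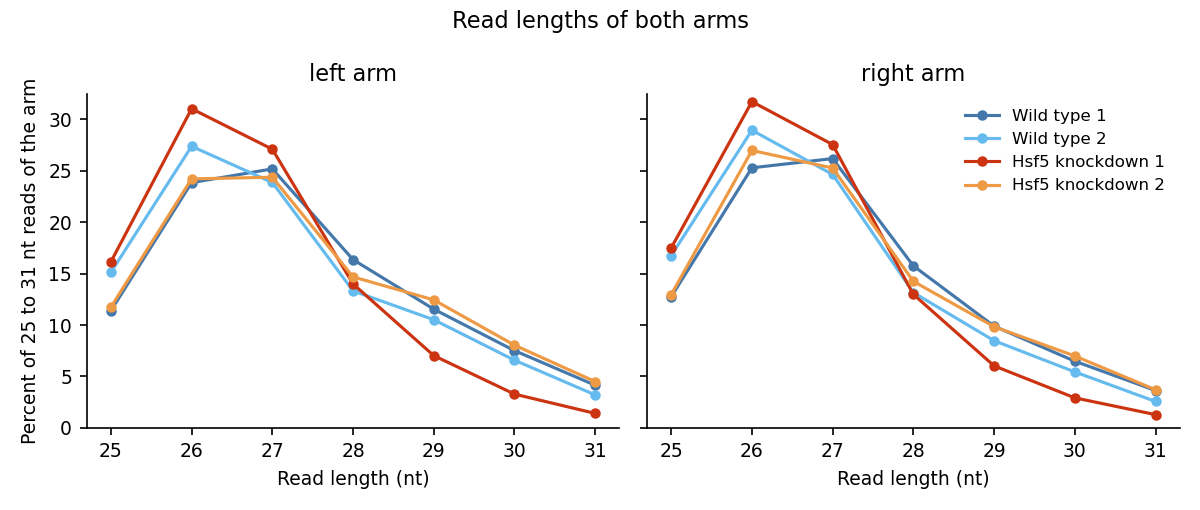
Percent of the 25 to 31 nt reads of each arm (y axis) at each read length in nt (x axis), 1 line per library. Knockdown replicate 1 is the highest library at 25 and 26 nt and the lowest from 29 nt on, in each arm.

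The low long share of knockdown replicate 1 ran along the whole of both arms. Among stretches of 1 kb with at least 1000 reads in every library, it was lowest in that library in 34 of 34 of the left arm and 37 of 38 of the right arm. Stretches of 1 arm differed widely. In wild type replicate 1 their long share ran from 12.6% to 48.7% with a median of 21.04% in the left arm, and from 10.1% to 39.0% with a median of 19.9% in the right arm. In knockdown replicate 1 the medians were 10.8% and 10.1%.

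A first base of U, typical of piRNAs of the primary pathway, was found in 91.6%, 91.6%, 91.4% and 93.1% of the reads of the left arm. For the right arm the share was 91.9%, 91.5%, 91.8% and 92.8%. T makes up 24.01% of the bases of the right arm on its own strand and nearly the same share of the left arm. The share of U was highest in knockdown replicate 2 in each arm, and the groups overlapped (exact permutation p = 1 in the left and 0.667 in the right arm, two-sided). The arms did not differ in one direction: the right arm was higher in wild type replicate 1 and knockdown replicate 1 and lower in the other libraries, with a mean difference of 0.0704 ± 0.303 points (SD, n = 4 libraries, exact sign-flip p = 0.75). The other loci named by band had 90.0%, 90.0%, 91.1% and 91.4%, below both arms in 4 of 4 libraries (exact sign-flip p = 0.125). The next base after the U was G in 41.2% to 43.2% of such reads over both arms and all libraries. A followed in 29.6% to 30.95% in the left arm and in 34.0% to 35.4% in the right arm, without overlap between the arms.

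At base 10, where piRNAs made by slicing of a partner often carry A, the left arm had A in 27.7% to 30.5% of reads and the right arm in 25.5% to 26.3%, against 24.2% of the bases of each arm. The base that follows the 3′ end in the genome was U in 24.8% to 25.4% of reads of the left arm and in 27.2% to 28.6% of the right arm.

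The pair gave 88661 species, 37801 in the left arm and 50860 in the right arm. Every one matched its own arm in GRCm39 without mismatch, 1904 of the left arm and 2650 of the right arm only on the antisense strand, and none carried the name of another locus or class in any library. A single place in the genome held 99.4% of the species of the left arm and 99.6% of those of the right arm. Such species carried 98.2% to 98.3% of the reads of the left arm and 99.5% to 99.7% of those of the right arm. Single libraries held 21048, 20006, 23087 and 19283 species of the left arm. For the right arm they held 29821, 27621, 31642 and 26456. At a common depth of 298572 reads, the expected numbers were 20321, 20006, 20453 and 18239 species in the left arm and 22930, 22831, 22591 and 20423 in the right arm. At equal depth knockdown replicate 2 was thus the least diverse library in each arm, and the right arm the more diverse arm in each library.

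Most species were rare and most reads were shared. In the left arm 16371 species (43.3%) were seen in 1 library only and held 1.87% of the reads, whereas the 9652 species (25.5%) found in all 4 libraries held 93.1%. In the right arm 20885 species (41.1%) were seen in 1 library only with 1.31% of the reads, and 13932 (27.4%) in all 4 with 94.8%. Among species with at least 10 reads in some library, 6273 of 6726 in the left arm (93.3%) and 9284 of 9968 in the right arm (93.1%) were found in all 4. With at least 100 reads, this held for 950 of 950 in the left arm and 1713 of 1714 in the right arm.

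The reads were spread over many species. The 100 most abundant species of each library held 25.9%, 25.9%, 26.1% and 30.6% of the left arm. Those of the right arm held 23.7%, 23.0%, 24.7% and 28.2%. The knockdown libraries were the higher ones in each arm, knockdown replicate 1 by little and knockdown replicate 2 by most. The difference between the group means was 2.49 points in the left arm and 3.09 points in the right arm (exact permutation p = 0.333, the smallest possible, adjusted p = 1 over 7 comparisons), and without knockdown replicate 2 it was 0.27 and 1.33 points. The left arm was the more concentrated in 4 of 4 libraries, with a difference, right minus left, of -2.18, -2.86, -1.46 and -2.40 points (exact sign-flip p = 0.125, adjusted p = 0.167). The 100 most abundant species were the same in part: 58 in the left arm and 54 in the right arm stood among the 100 of all 4 libraries. Both wild type libraries shared 84 and 86 of them, and both knockdown libraries 64 and 63, left arm first. Each wild type library shared 80 to 84 with knockdown replicate 1 in the left arm and 79 to 81 in the right arm. With knockdown replicate 2 it shared 69 to 72 and 68 to 71.

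Left 1, from an intron of Gm49793, was the first species of its arm in 3 of 4 libraries and the second in wild type replicate 1. It had 322, 455, 519 and 707 RPM, higher in both knockdown libraries, as the arm itself was by RPM. By share of the arm's reads the groups overlapped, at 1.07%, 1.41%, 1.16% and 2.17%. How many of all species separate the groups by RPM or by share of the arm was not counted. The shorter form of left 1, which ends 1 base earlier, was the tenth species, with 85.3, 159, 175 and 242 RPM. Left 2 had 217, 311, 484 and 469 RPM, and 0.724%, 0.966%, 1.08% and 1.44% of the arm's reads, higher in both knockdown libraries by either measure. Left 3 had 346, 266, 315 and 294 RPM, within the wild type range. Left 4, which starts 148 bases from the inner end of the arm, had 244, 227, 214 and 347 RPM.

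Left 5, of 29 nt, was the most uneven of the 10 in its arm, by the ratio of its highest to its lowest library. It had 137, 215, 62.4 and 416 RPM, the knockdown libraries being its lowest and its highest. Its rank in the arm was 10, 5, 94 and 3. Left 6 had 131, 172, 245 and 161 RPM.

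Right 1, the most abundant piRNA of the pair by mean RPM, had 676, 688, 1425 and 498 RPM. It was first in its arm in both wild type libraries and in knockdown replicate 1 and the third in knockdown replicate 2. Right 2 had 532, 495, 673 and 717 RPM, higher in both knockdown libraries. By share of the arm's reads it had 0.916%, 0.872%, 0.822% and 1.23%, with overlap of the groups. Right 3 had 482, 508, 766 and 619 RPM. Right 5, which lies less than 1 kb nearer to the inner end, had 322, 357, 539 and 430 RPM. In both species the knockdown libraries lay above the wild type, as did the arm itself by RPM. They also lay above it by share of the arm's reads. That share was 0.829%, 0.894%, 0.937% and 1.06% for right 3, and 0.554%, 0.628%, 0.659% and 0.736% for right 5. Right 4 had 394, 397, 796 and 374 RPM, so that only knockdown replicate 1 was high. Right 6 had 306, 289, 533 and 404 RPM, and 0.527%, 0.509%, 0.652% and 0.690% of the arm's reads, higher in both knockdown libraries by either measure.

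**Figure D3:**
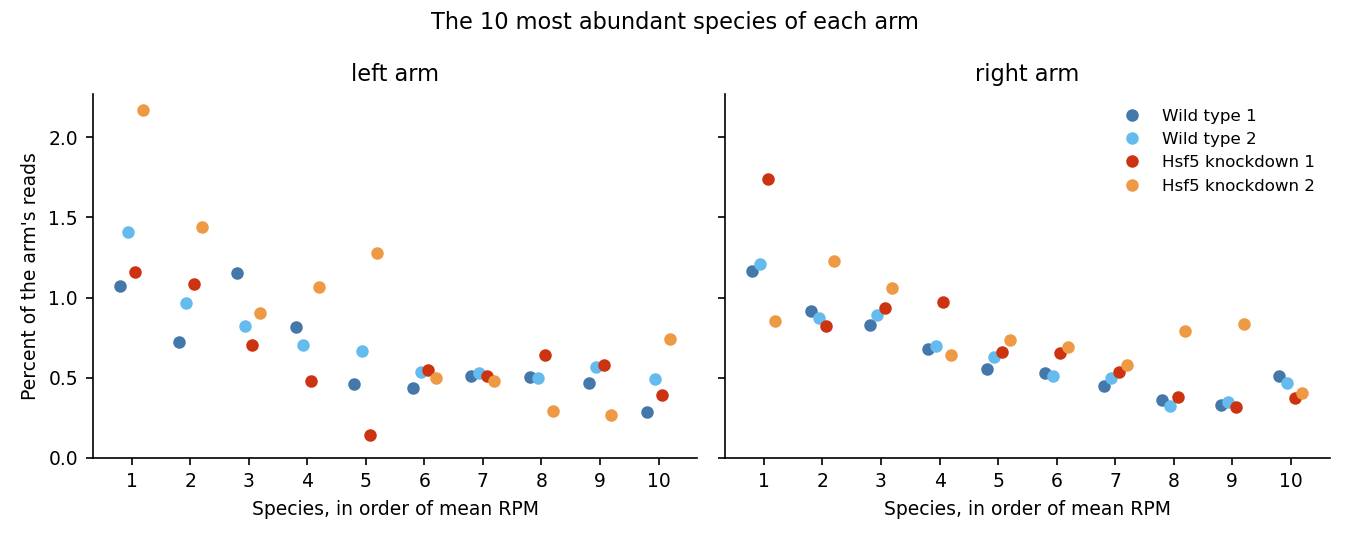
The 10 species with the highest mean RPM in each arm (x axis, in that order) and the percent of the arm's reads that each took (y axis), 1 point per library. The wild type libraries lie near each other for most species, and the fifth species of the left arm is lowest in knockdown replicate 1 (0.139%) and highest in knockdown replicate 2 (1.28%).

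No species passed the test between the genotypes, which does not show that they did not differ. In edgeR's fit over 16758 species of all loci with at least 10 counts per 1000000 in 2 libraries, 0 (0%) passed an adjusted p of 0.05. At an unadjusted p under 0.05 there were 24 lower and 0 higher species, and DESeq2 called 0. Of the left arm 2183 species were tested, of which 988 had a higher and 1195 a lower level on the knockdown side (median log2 difference -0.06). Of the right arm 3645 were tested, of which 1502 were higher and 2143 lower (median -0.11). The median over all species tested was -0.13, and with all counted reads as library sizes it was 0.18. The numbers below an unadjusted p of 0.05 were 3 lower species in each arm and 0 higher. The factors of this fit are set over species and not over loci, so its log2 differences are not on the scale of the fit over loci. Without knockdown replicate 1 it called 935 species of 14441, and without knockdown replicate 2 it called 3847 of 14542, each with 1 knockdown library.

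The 3 species of each arm with the lowest p in each direction were all rare, with mean levels from 2.12 to 11.2 RPM. Of the 6 lower ones 5 were of 28 to 31 nt, and the 6 higher ones were of 25 to 27 nt. Short lengths are common in the pair: by reads, 29 to 31 nt made up 10.2% to 24.98% over both arms and all libraries. Of the right arm, a 30 nt species that starts 2 bases before right 4 had 4.32, 4.75, 0.936 and 1.28 RPM, the lowest p of the pair (edgeR log2 difference -2.35, SE 0.75, adjusted p = 0.9998). It is shown beside right 4, from chr17:27555851-27555880, because it overlaps that abundant species.
right, 2 bases before right 4: Tatgagaatcaaagatgggaccttgctcgg
In the left arm the lowest p belonged to a pair of 29 nt and 28 nt species with 1 shared 5′ end at chr17:27537368-27537396, an intron of Gm49793. The longer had 12.7, 12.9, 4.05 and 4.86 RPM (edgeR log2 difference -1.86, SE 0.61, adjusted p = 0.9998).
left, longer form: Tcttcgcgagaggctttggcatagatgca
Among those with the lowest p that were higher, a 26 nt species of the left arm that begins with C had 1.35, 0.864, 5.41 and 5.23 RPM. A 27 nt species of the right arm had 1.26, 1.94, 6.96 and 5.60 RPM. These species were picked for their p, so their separation is a description.

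The distribution of reads along the arms was much alike in the 4 libraries. Shares are of the sense reads under the name of the arm with 1 place, without reads of other classes. By mean share, the richest 1 kb stretch of the left arm lay 5 to 6 kb from its inner end. It held 10.1%, 8.61%, 9.53% and 7.54% of these reads. The next, at 4 to 5 kb, held 7.50%, 8.06%, 8.92% and 8.69%, and was the richer of both in knockdown replicate 2. In the right arm the richest stretch lay 33 to 34 kb from the inner end, with 7.97%, 7.68%, 7.75% and 8.01%, and the next at 17 to 18 kb, with 7.51%, 7.07%, 7.19% and 8.17%, which again put the second first in knockdown replicate 2. By mean share the 4 richest stretches of the left arm all lay within 7 kb of its inner end, whereas those of the right arm lay at 2 to 3, 6 to 7, 17 to 18 and 33 to 34 kb. Between 26 and 28 kb the right arm had no read of its own name with 1 place in any library, and between 28 and 29 kb at most 0.0114%. Between 35 and 36 kb the left arm had none. Among full stretches that held any such read, knockdown replicate 1 was the highest library by RPM in 31 of 35 of the left arm and 39 of 40 of the right arm. The correlation of the 1 kb shares between libraries, over 37 and 43 stretches of 1 genome, ran from 0.937 to 0.983 in the left arm and from 0.977 to 0.993 in the right arm.

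**Figure D4:**
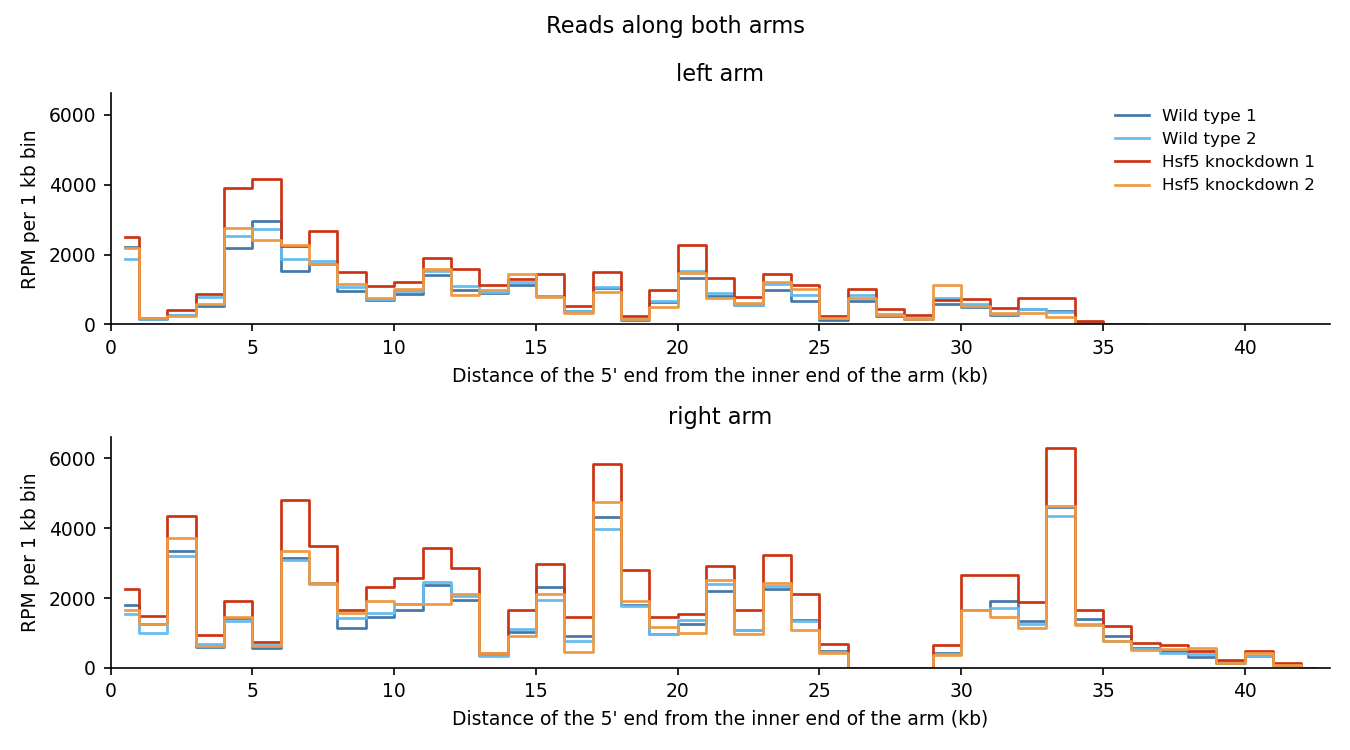
RPM of the sense reads under the name of each arm with 1 place in the genome, in bins of 1 kb (y axis). The x axis gives the distance of the 5′ end from the inner end of the arm in kb, with 1 line per library. The lines of the 4 libraries have similar shapes, and knockdown replicate 1 lies above the others in most bins. The right arm has no such read from 26 to 28 kb.

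The reads lay in exons, introns and between annotated genes. In the left arm 58.4% to 60.9% of reads lay in no gene of its strand, 32.03% to 34.8% in introns of Gm49793 (chr17:27527288-27537670) and 3.09% to 3.32% in its exons. Per kb its introns gave 1039, 1133, 1508 and 1191 RPM and its exons 906, 950, 1344 and 918 RPM. Its exons were thus the less dense in each library. Gm65443, a short gene of the same strand, had 832, 803, 1292 and 725 RPM per kb of exon and 668, 690, 956 and 808 RPM per kb of intron, its exons being the denser in 3 of 4 libraries. In the right arm Gm10505 (chr17:27544009-27563820), which starts within the stretch between the arms, gave 1792, 1794, 2584 and 1847 RPM per kb of intron and 1687, 1534, 2310 and 1756 RPM per kb of exon. In Gm49794 (chr17:27573085-27586466) the exons were instead the denser part, by a far wider gap. Its exons gave 1087, 1026, 1510 and 1039 RPM per kb. Its 343 bases of intron gave 3.93, 4.41, 3.94 and 1.87 RPM per kb, from 7 to 15 reads in a library. The stretch of the right arm without such reads, 26 to 28 kb from its inner end, lies between Gm10505 and Gm49794.

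Annotated miRNA hairpins, 4 in number, lie inside the arms, Mir7214 in the left and Mir7216, Mir7217 and Mir7218 in the right. The reads that the table names as their mature miRNAs were few: 127, 145, 56 and 232 for Mir7214, and 16, 89, 65 and 34 for Mir7217. Reads of piRNA length that overlap Mir7217 (chr17:27574712-27574773) numbered 6872, 6123, 9101 and 10121, far above its mature reads in each library.

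The arms gave more piRNA-sized RNA than the locus names count. Of all 25 to 31 nt reads with 1 place on the sense strand of the left arm, 20.8%, 20.5%, 19.4% and 19.3% stood in the table under another class. The share in the right arm was 14.8%, 14.5%, 14.7% and 13.2%. Most of these reads carried names of LTR retrotransposons that lie in the arms, at 13.3% to 13.99% of the left arm and 8.52% to 9.42% of the right arm. RMER17A2 led in the left arm with 12899, 10755, 14943 and 15876 reads. RLTR24 led in the right arm with 21913, 15533, 23874 and 16551 reads. LINE names made up 1.28% to 1.95% in the left arm and 3.91% to 4.80% in the right arm, where CR1_Mam, an old non-LTR element, was the largest with 16189, 13073, 20596 and 9994 reads. A single 5′ end could be divided in this way: 1115 ends of the left arm and 1446 of the right arm had reads of both kinds, with 13.3% and 13.1% of the reads.

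Antisense reads were rare. With 1 place in the arm and whatever their class, they made up 0.411%, 0.279%, 0.323% and 0.431% of the left arm, and 0.284%, 0.214%, 0.246% and 0.334% of the right arm. Wild type replicate 2 had the lowest share in each arm. Their 5′ ends overlapped those of sense reads by 10 nt, the overlap that slicing by a PIWI protein leaves, more often than by any other length from 1 to 20 nt in all 4 libraries and both arms. The overlap of 10 nt took 11.9%, 12.02%, 10.5% and 13.05% of all such overlaps in the left arm and 10.5%, 10.7%, 9.98% and 12.03% in the right arm. The next most frequent overlap took 5.64% to 6.06%. Only 1030 to 2446 antisense reads of an arm lie behind each of these values.

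Single 5′ ends differed between libraries more than whole arms did. Ends were compared by the share they took of their locus, so that the level of the locus does not enter, over 479 ends of the left arm and 796 of the right arm with at least 20 RPM in some library. In knockdown replicate 1, 5 of these 1275 ends lay more than 3-fold below the lowest of the other libraries, 0.392% against 1.92% of the 2924 ends of 60 loci tested in all. In knockdown replicate 2, 28 lay as far below, 2.20% against 1.44% of all ends. In wild type replicates 1 and 2, 0 ends of the pair did, against 0.0342% and 0.171% of all ends. In the other direction, more than 3-fold above the highest other library, lay 0 ends of the pair in wild type replicate 1 (against 0.0342% of all ends), 1 in wild type replicate 2 (0.0784% against 0.0684% of all ends), 1 in knockdown replicate 1 (0.0784% against 0.0684%) and 2 in knockdown replicate 2 (0.157% against 0.992%). Each of these counts compares 1 library with 3 others and has no test. The 28 low ends of knockdown replicate 2 gave short piRNAs, with mean lengths from 25.04 to 27.8 nt, and 26 of them began with U. The 5 low ends of knockdown replicate 1 gave long ones, with mean lengths from 28.6 to 31 nt. Short ends were the commoner ones in the pair as a whole. Ends averaging under 27 nt numbered 239 in the left and 436 in the right arm, against 70 and 113 of 28 nt or more. By reads, U was the first base in 91.4% to 93.1% over both arms and all libraries.

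The commonest species of these 5 ends are shown because at these ends knockdown replicate 1 lay more than 3-fold below each other library.
left a, chr17:27529452-27529480: Tcccatacgtctttgcgagttttctgatc
left b, chr17:27529002-27529030: Gaggtttccagacgggcatgtaggcaacc
left c, chr17:27527978-27528008: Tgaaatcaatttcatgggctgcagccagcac
right a, chr17:27564037-27564065: Tttgttgaatggatgaatgggtggatgac
right b, chr17:27564038-27564068: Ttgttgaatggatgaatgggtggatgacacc
All 3 of the left arm lie in introns of Gm49793, within 2 kb of each other, and both of the right arm lie in no gene and start 1 base apart. The end of left a had 1665, 2093, 231 and 4418 reads. The end of left b, which begins with G, had 454, 605, 6 and 227 reads. The end of left c had 141, 153, 3 and 228 reads. The end of right a had 410, 621, 4 and 527 reads, and that of right b 238, 397, 10 and 1060. By share of the arm, knockdown replicate 2 lay above both wild type libraries at 3 of the 5, those of left a, left c and right b.

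More widely, the share of its arm that an end took, relative to the wild type, went with its read length. It did so in a different way in each knockdown library. The log2 differences here are of shares of the arm and not of RPM. Read lengths are means over the reads of all libraries, those compared included. Among ends whose reads averaged 28 nt or more, the median log2 difference from the wild type mean in knockdown replicate 1 was -0.35 over 70 ends of the left arm and -0.42 over 113 ends of the right arm. Among ends averaging under 27 nt it was 0.25 over 239 ends and 0.21 over 436 ends. In knockdown replicate 2 the long ends had medians of -0.01 and 0.03 and the short ends -0.30 and -0.27, left arm first. The medians of wild type replicate 2 minus wild type replicate 1 in the same groups of ends were -0.095 and -0.083 for the long ends and 0.049 and 0.053 for the short ones. Over log2 RPM of 597 ends of the left arm and 1010 of the right arm, the correlation was 0.954 and 0.953 between the wild type libraries and 0.729 and 0.763 between the knockdown libraries. Knockdown replicate 1 correlated with the wild type libraries at 0.885 to 0.899 in the left and 0.913 to 0.937 in the right arm. For knockdown replicate 2 this was 0.832 to 0.858 and 0.841 to 0.857.

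**Figure D5:**
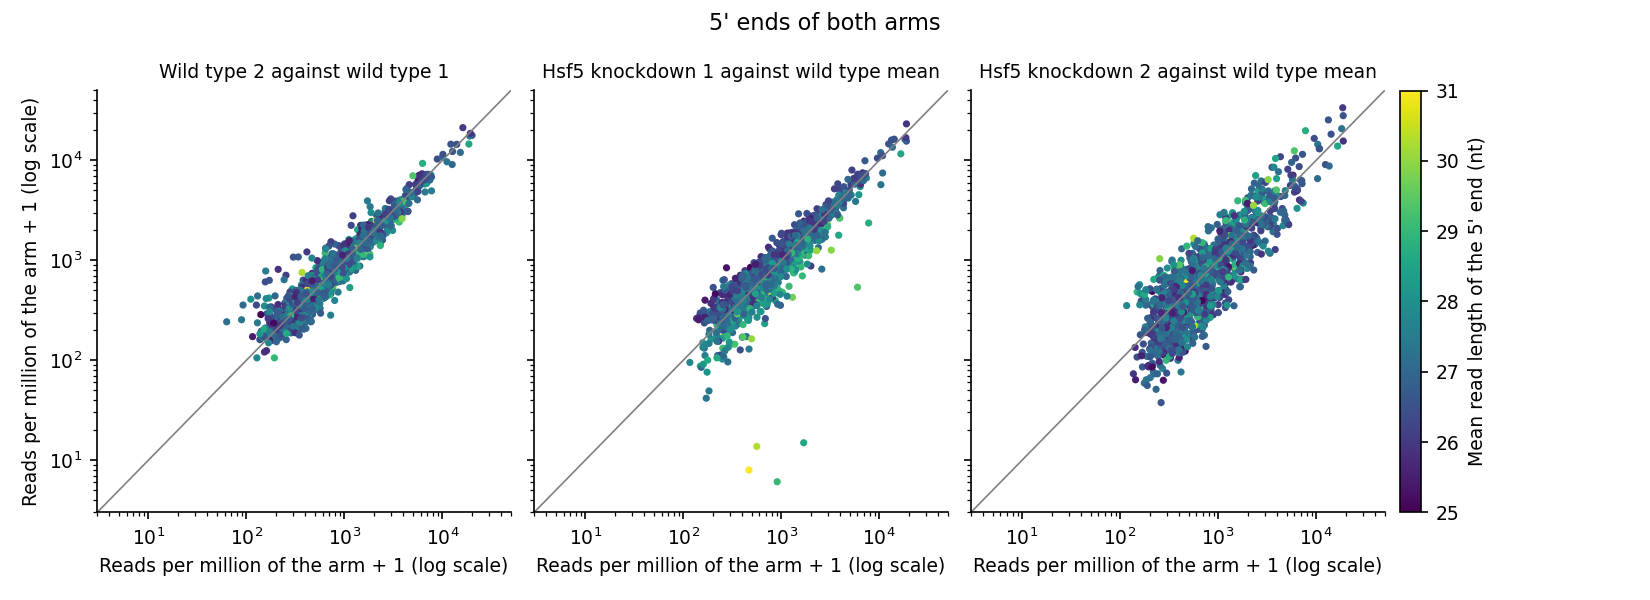
Reads per 1000000 reads of the arm (plus 1, log scales) at the 1275 tested 5′ ends of both arms, for wild type replicate 2 against wild type replicate 1 and for each knockdown library against the wild type mean, with colour giving the mean read length in nt and the line marking equal values. A few ends of long piRNAs fall far below the line in knockdown replicate 1, and the points of knockdown replicate 2 are the most scattered.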

How the data were processed

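Read trimming used cutadapt and the build is mm39, per the submitters' processing notes. No source used here names the aligner, its mismatches or the order of classes. The deposited table holds raw read counts made by the authors, 1 line for each sequence, library and annotation. It also holds a ratio, the authors' scaling factor, equal to 1000000 divided by the mature miRNA reads of a library. Its 12700077 lines gave 6208912 pairs of sequence and library, each counted once. No molecular identifiers are described, so intervals cover counting error only.

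RPM are reads per 1000000 counted reads, and 3 reads, the limit a count of 0 allows, are 0.270 to 0.324 RPM. Sequences were matched exactly to GRCm39, the assembly that UCSC calls mm39, and placed in GENCODE M39. Counts of 25 to 31 nt reads were fitted with edgeR 4.0.16 (robust quasi-likelihood test, TMM, Benjamini-Hochberg 0.05) over all loci (1 CPM in 2 libraries) or all species (10 CPM in 2 libraries), with DESeq2 1.42.0 as an alternative, and the scripts were tested on simulated data. Single values were compared with exact permutation or sign-flip tests. The members and lists were chosen with earlier results of these data known. Named species are the 10 of highest mean RPM in each arm and the 3 of lowest p in each direction, some of them given as counts. The rules for single 5′ ends, their length classes, overlaps of opposite strands and divergent pairs were set after the data were seen. Other scalings, filters, read lengths, a replicate block and leaving out each library were tried as alternatives.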

Additional observations from a re-analysis of the deposited data

How the results depend on the processing

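The labels give no pairing. Deviations from the group means of equally numbered libraries correlated at 0.49 over loci and 0.30 over species, from 2 pairs only. With the replicate number as a block the log2 differences were 0.56 in the left and 0.53 in the right arm, 0 loci and 0 species were called as without it, and among the named species left 5 turned to -0.42 and right 1 to -0.020.

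With 2 libraries in each group the exact permutation test cannot reach 0.05, and each difference between the groups leaned on single libraries. Leaving out 1 library each, with a lone library then assumed to vary like the others, the log2 difference ran from -0.61 to 1.49 in the left arm and from -0.66 to 1.47 in the right arm. The called loci ran from 0 to 62 and the called species from 0 to 3847. The genotype difference of the log2 arm ratio ran from -0.097 to 0.042, that of the long share from -10.04 to 3.24 points in the left arm and from -8.01 to 2.29 points in the right arm, and that of the first-base U share from -0.17 to 1.49 points in the left arm. With each distinct sequence counted once, the U difference was -1.04 points in the left and -0.72 points in the right arm. Without the filter on low counts 15 species of 781401 were called. The cause of these changes was not tested.

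The log2 differences of the abundant species, none of which passed the test, changed sign as follows. With DESeq2's size factors left 4, 7, 8 and 9 had 0.044, 0.10, 0.18 and 0.0027, with all counted reads 0.25, 0.25, 0.31 and 0.11, and with mature miRNA reads left 4, 7 and 8 had 0.11, 0.043 and 0.066. DESeq2's test gave 0.0080 for left 7 and 0.078 for left 8, and left 8 had 0.053 without the filter. Leaving out 1 library each, left 3 to left 9 ran from -0.69 to 0.11, -0.43 to 0.20, -1.74 to 0.88, -0.29 to 0.44, -0.47 to 0.23, -1.11 to 0.62 and -1.26 to 0.43 in that order. In the right arm, species 1 to 5 ran from -0.87 to 0.78, -0.13 to 0.40, -0.089 to 0.37, -0.50 to 0.73 and -0.064 to 0.39, and species 7 from -0.086 to 0.41.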
